A study of Mus musculus with 8 samples.

Results

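The genes examined carry names given to motile cilia genes: Foxj1 and every protein-coding gene named Dnah, Dnai, Cfap or Rsph with a number. They were picked by a name rule from the count tables, which list 54752 genes. The choice was made with earlier results of these data known. A name alone does not show that a product acts only in motile cilia. The name pattern matched 56 genes, of which 1 was not protein-coding, and 55 remained. Of these, 50 had a total of at least 40 counts over the 8 libraries: Foxj1, 14 of 15 dynein heavy chains, 29 of 31 Cfap genes and 6 of 8 radial spoke genes. No symbol matched Dnai with a number, because the annotation used here names those intermediate chains Dnaic1 and Dnaic2.

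RNA came from whole brains of wild type C57BL/6 mouse fetuses at E15.5 (C57BL/6Slac in the study's methods). The 4 stress brains (F34, F35, M28 and M29, the letter giving the sex) came from a litter whose mother was exposed to chronic unpredictable mild stress (CUMS) until the day before collection, and the 4 control brains (F36, F37, M30 and M31) from a litter whose mother stayed in the home cage. Each group was a single litter by the study's sample list, so litter and stress cannot be told apart, and p-values measure only the spread between littermates. The comparison asked whether these genes differed between fetal brains after prenatal stress (PS) and control brains. In whole-tissue RNA, fewer cells of a type and less RNA per cell cannot be told apart either.

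A motile cilium beats because dynein heavy chains, anchored as outer and inner arms on its microtubule doublets, slide neighbouring doublets past each other. Radial spokes and the central apparatus coordinate that sliding, and many Cfap proteins line or link the doublets. FOXJ1 and the RFX factors switch on the genes of motile cilia. In the brain such cilia are carried by ependymal cells and choroid plexus epithelium, and ependymal cells complete their ciliation after birth.

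RFX factors bind the X-box, a pair of inverted copies of a short core, and forkhead factors such as FOXJ1 bind letters containing TGTTTAC. RefSeq promoters (GRCm38.p6, 250 bases before to 50 after the annotated start) were found for 39 of the 50 genes, with 42 promoters in all, and Foxj1 was among the 11 without one. The X-box core GTTGCC, searched on both strands, was in 16 of the 42 promoters (38.1%), against 12.5% of all 32851 promoters. The longer form GTTGCCA, which contains the core, was in 11 (26.2%), against 4.38%. The forkhead letters TGTTTAC were in 3 (7.14%; Cfap20, Cfap43 and Dnah17), against 3.65%. The RefSeq starts of Cfap43 and Dnah17 lie 81938 and 1415 bases from the start of the gene in the count table. All these matches are descriptions of letters and not of binding, and both promoters of Cfap74 overlap. The 250 bases before the start are shown for the 3 genes called lower after PS and, because it holds the longer form at 2 places and was called in males, Cfap44, with matches in capitals and everything 5′ to 3′ on the gene's strand. They were picked after the values and matches were known.
Dnah12 (chr14:26691304-26691553, plus strand): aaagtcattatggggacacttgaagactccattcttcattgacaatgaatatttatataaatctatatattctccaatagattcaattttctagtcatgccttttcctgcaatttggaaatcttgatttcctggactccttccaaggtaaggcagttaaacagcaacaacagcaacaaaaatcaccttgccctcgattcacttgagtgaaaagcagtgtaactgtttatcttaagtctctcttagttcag
Dnah10 (chr5:124724835-124725084, plus strand): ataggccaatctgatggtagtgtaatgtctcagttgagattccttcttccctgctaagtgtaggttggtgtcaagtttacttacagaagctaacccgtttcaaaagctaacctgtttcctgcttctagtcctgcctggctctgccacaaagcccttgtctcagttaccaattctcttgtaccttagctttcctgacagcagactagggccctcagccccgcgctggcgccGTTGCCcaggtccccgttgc
Cfap69 (chr5:5664233-5664482, minus strand): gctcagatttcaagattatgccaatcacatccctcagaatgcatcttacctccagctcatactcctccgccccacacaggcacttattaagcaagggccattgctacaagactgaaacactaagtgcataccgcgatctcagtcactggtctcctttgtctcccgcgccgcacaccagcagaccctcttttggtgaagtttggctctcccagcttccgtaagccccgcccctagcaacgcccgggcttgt
Cfap44 (chr16:44394549-44394798, plus strand): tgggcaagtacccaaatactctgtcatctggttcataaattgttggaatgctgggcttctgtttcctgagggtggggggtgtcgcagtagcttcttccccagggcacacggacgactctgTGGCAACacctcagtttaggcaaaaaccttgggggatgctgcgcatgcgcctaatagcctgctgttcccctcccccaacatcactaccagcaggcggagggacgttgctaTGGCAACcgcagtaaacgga
Dnah10 holds 2 cores on its own strand, 1 at 20 to 15 bases before the start, shown here, and 1 at 10 to 15 bases after it, beyond the bases shown, which extends to the longer form. In the bases shown Cfap44 holds 2 longer forms on the opposite strand. None of the 3 motifs was in the promoters of Dnah12 and Cfap69. The RefSeq start of Dnah12 lies 1720 bases from the start of the gene in the count table, so that window does not adjoin the start used in the counting.

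Sequencing gave 25320109 to 29105710 counts per library, and the 50 genes together took 0.0332 to 0.0354% of them. Most were therefore counted thinly: the median total over the 8 libraries was 497, and 22 genes had fewer than 400. Standard errors of the differences are wide for the genes with few counts. CPM values (counts scaled to library size) below are scaled by TMM (trimmed mean of M-values), are given as mean ± SD (n = 4), and per-brain values follow the order F36, F37, M30, M31 for controls and F34, F35, M28, M29 for stress.

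Levels between genes were compared as CPM per kilobase of exon over all 8 brains. The median over the 50 genes was 0.398, against 3.28 over all 19809 genes tested, and 13 genes exceeded 1. Cfap36, a partner of the small GTPase ARL3, stood highest at 23.1 CPM per kilobase, followed by Cfap20, a protein of the doublet seam, at 11.9. Cfap300, a dynein arm assembly protein, at 7.62 and Rsph9, a spoke head protein, at 7.44 came next and lay within their spread of each other. Cfap97 had 6.20, Foxj1 5.28, Cfap298, another assembly protein, 3.95 and Cfap69, a protein of the central apparatus, 2.39. The exons of Cfap298 were covered for 53.6% by another gene, so its counts are uncertain.

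The heavy chains, the motors themselves, had a far lower range, 0.0318 to 0.844 CPM per kilobase. Dnah2 and Dnah1, both inner arm chains, were at its top with 0.844 and 0.812, and Dnah12, also of the inner arms, was the lowest of all 50 genes. The 5 outer arm chains (Dnah5, Dnah8, Dnah9, Dnah11 and Dnah17) lay between 0.0753 and 0.338. Dnah7a, Dnah7b and Dnah7c, and likewise Rsph3a and Rsph3b, are near-identical copies. Reads that such copies share cannot be assigned to 1 of them, and their separate values are uncertain.

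**Figure D1:**
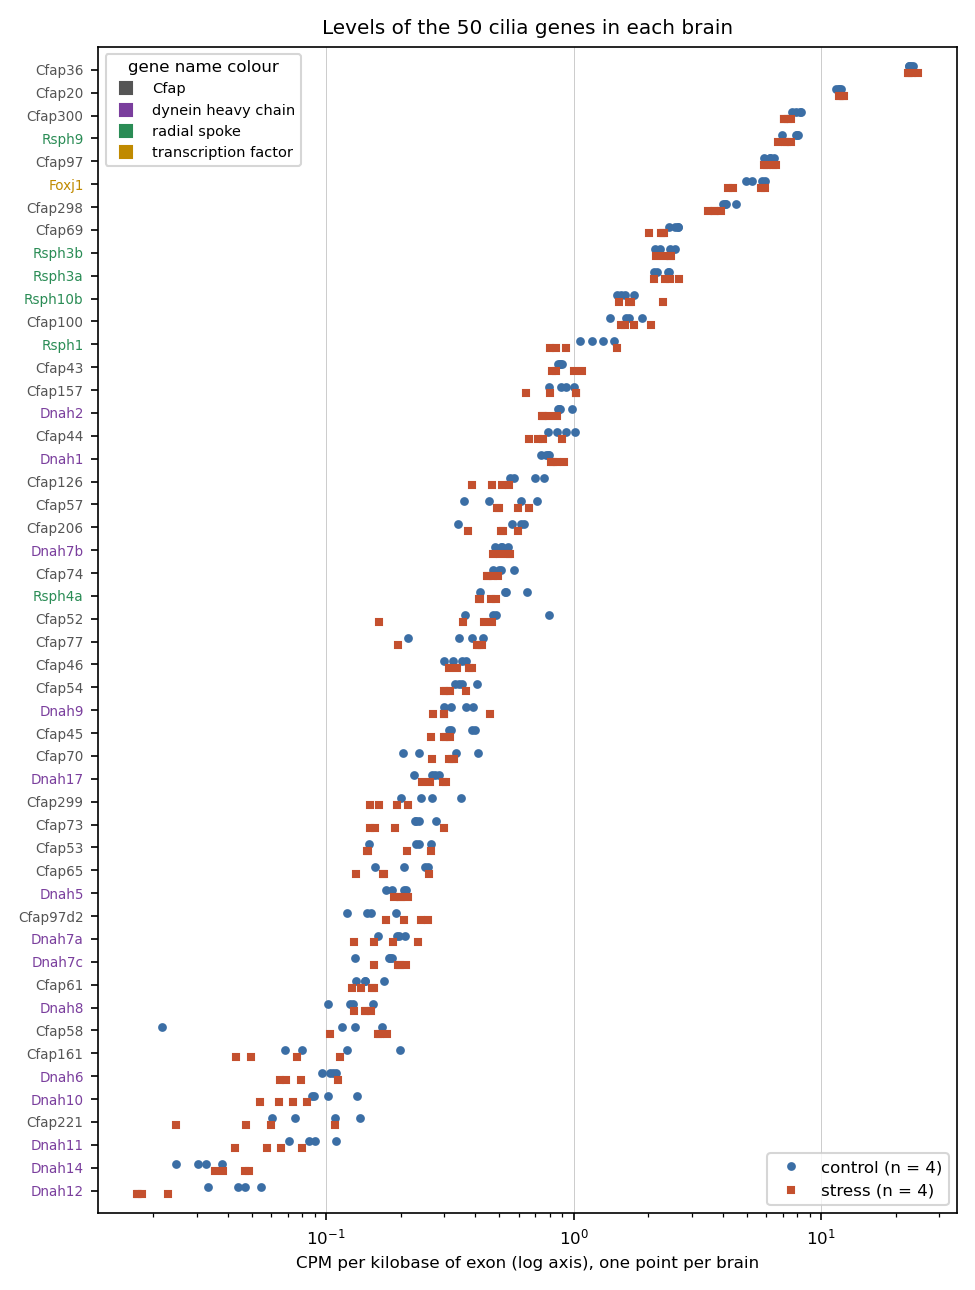
CPM per kilobase of exon on a log axis for the 50 cilia genes, ordered by level, with each of the 4 control brains as a circle and each of the 4 stress brains as a square. Cfap36 at 23.1 and Dnah12 at 0.0318 mark the ends, and for most genes the circles and squares overlap.

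Between stress and control, 3 of the 50 genes were called lower (6%, against 6.41% of all genes tested) and 0 higher (against 5.49%), by edgeR's quasi-likelihood test with sex in the model and a Benjamini-Hochberg adjusted p under 0.05. The share called lower was thus near the background, and the count was 1 without control F37 and 1 without control M30. At an unadjusted p under 0.05, 9 were lower (18%, background 12.7%) and 1 higher (2%, background 12.2%). DESeq2 called 1 lower (background 4.46%) and 0 higher (background 3.57%). The fitted difference was below 0 in 29 genes (58%), against 49.4% of all genes tested, and the median log2 fold change was -0.11, against 0.00. Without stress M29, 27 were below 0 and the median was -0.02.

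Dnah12 had the largest difference. It was counted 11, 16, 18 and 15 times in the control brains and 6, 7, 6 and 6 times in the stress brains. Every control count lay above every stress count, but all were small. In CPM that was 0.536 ± 0.105 against 0.227 ± 0.0329, a log2 fold change of -1.23 (SE 0.33, edgeR adjusted p = 0.0125). DESeq2 gave an adjusted p of 0.0925, and of the 8 fits that each left out 1 brain, 7 kept the call, which was lost without control M30 (edgeR adjusted p = 0.0512).

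Dnah10, the heavy chain that pairs with Dnah2 in the double-headed inner arm, was at 1.64, 2.15, 1.41 and 1.44 CPM in controls and 1.34, 1.18, 0.870 and 1.04 CPM after PS. The groups did not overlap, although control M30 and stress F34 were close. The log2 fold change was -0.58 (SE 0.17, edgeR adjusted p = 0.0254), with an adjusted p of 0.137 in DESeq2, and 4 of the 8 fits without 1 brain kept the call. It was lost without control F37, control M31, stress F35 or stress M28 (edgeR adjusted p from 0.0534 to 0.121). Dnah2 itself was at 13.14, 13.04, 12.88 and 14.79 CPM in controls and 11.91, 12.87, 11.14 and 11.29 CPM after PS. Its groups were barely apart, and it was not called (log2 fold change -0.19, SE 0.07, edgeR adjusted p = 0.0619).

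Cfap69 was the only called gene with a high count, 4208 in all. It was at 19.1, 20.9, 20.9 and 20.2 CPM in controls and 17.8, 18.4, 18.2 and 15.9 CPM after PS. All stress brains lay below all control brains, by a small margin. The log2 fold change was -0.21 (SE 0.06, edgeR adjusted p = 0.0129), DESeq2 called it too (adjusted p = 0.0429), and 5 of the 8 fits without 1 brain kept the call, which was lost without control F37, control M30 or stress M29 (adjusted p from 0.0541 to 0.0941). No gene of the 3 was called in all 8 of those fits.

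**Figure D2:**
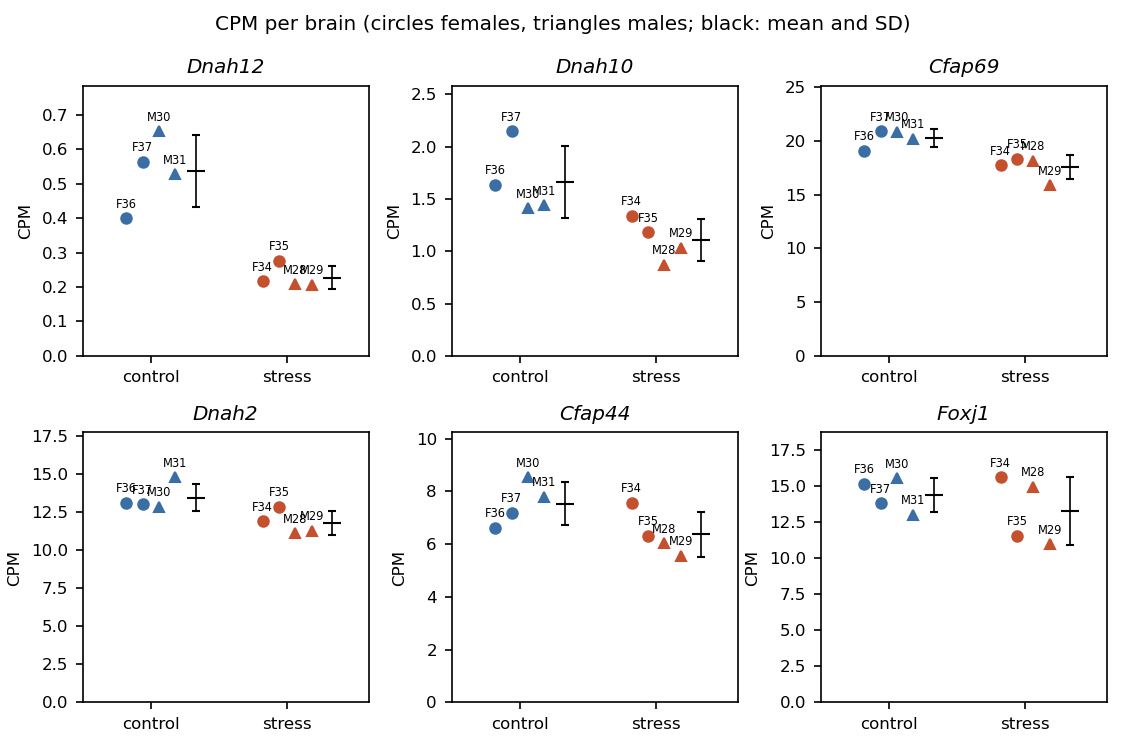
CPM of Dnah12, Dnah10, Cfap69, Dnah2, Cfap44 and Foxj1 in each brain, with females as circles, males as triangles, and the mean and SD (n = 4) in black beside each group; axes start at 0. Control and stress brains are apart for Dnah12, Dnah10, Cfap69 and, narrowly, Dnah2, and overlap for Cfap44 and Foxj1.

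Foxj1, the regulator, was not called. It was at 15.18, 13.82, 15.56 and 13.03 CPM in controls and 15.61, 11.57, 14.97 and 10.98 CPM after PS. Stress F34 and M28 were among the higher brains of either group while F35 and M29 were the lowest. The log2 fold change was -0.11 (SE 0.09, edgeR adjusted p = 0.467). It was -0.02 without stress M29, -0.04 without stress F35, -0.06 without control M30, -0.20 without stress M28 and -0.21 without stress F34.

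Among the 14 heavy chains, 2 were called lower, where 6.41% of all genes tested were, and 7 lay below 0 and 7 above. The inner arm chains had a median log2 fold change of -0.15 over 8 genes, and the outer arm chains 0.05 over 5, of which none was called; this split, made after the values were seen, leaves out Dnah14. Dnah11, an outer arm chain, fell short of the threshold with 1.29 ± 0.234 CPM in controls and 0.891 ± 0.224 CPM after PS (log2 fold change -0.53, edgeR adjusted p = 0.0786). Dnah14 had the highest fitted value of the family at 0.43 (SE 0.25, edgeR adjusted p = 0.314), followed by Dnah7c at 0.17 (SE 0.15) and Dnah8, a chain of sperm outer arms, at 0.16 (SE 0.15). When each brain was left out, Dnah7c ran from 0.06 to 0.28 and Dnah8 from 0.05 to 0.29. Dnah1 was at 10.4, 10.3, 10.1 and 9.63 CPM in controls and 11.9, 11.1, 10.7 and 10.6 CPM after PS, with all stress brains above all controls but no call (log2 fold change 0.14, edgeR adjusted p = 0.203).

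Of the 29 Cfap genes 1 was called, with 18 below 0 and 11 above. The lowest fitted values other than that of Dnah12 belonged to Cfap161 and Cfap221, which had totals of only 67 and 50 counts. Cfap161, a protein inside the doublet, was at 0.373 ± 0.188 CPM in controls and 0.225 ± 0.102 after PS (log2 fold change -0.72, SE 0.41, but -0.25 without control M31 and -1.10 without stress F34). Cfap221, a central apparatus protein, was at 0.277 ± 0.100 and 0.175 ± 0.103 CPM (log2 fold change -0.68, SE 0.44, but -1.22 without stress F35). Cfap52, which also lines the doublet, was counted 30, 24, 51 and 32 times in controls and 30, 21, 29 and 11 times after PS. The groups overlapped and M29 stood lowest, and the log2 fold change of -0.57 (SE 0.26) became -0.25 without it. The highest fitted values were those of Cfap97d2 at 0.53 (SE 0.22, edgeR adjusted p = 0.115) and Cfap58, a gene of sperm flagella, at 0.47 (SE 0.36). The value of Cfap58 was 0.12 without control M30 and 0.89 without control M31.

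The 2 most abundant genes, and Cfap97, had small fitted differences. Cfap36 was at 63.0 ± 1.13 CPM in controls and 63.7 ± 2.71 after PS, Cfap20 at 52.3 ± 1.06 and 53.8 ± 1.33, and Cfap97 at 31.8 ± 1.23 and 32.1 ± 1.61; their log2 fold changes were 0.02, 0.04 and 0.01, with SEs of 0.04, 0.03 and 0.05. The sign for Cfap36 and Cfap97 turned when single brains were left out. Cfap300 was at 12.7 ± 0.495 CPM and 11.5 ± 0.365, with groups apart but no call (log2 fold change -0.14, edgeR adjusted p = 0.162). Of the 6 radial spoke genes none was called, and their log2 fold changes ran from -0.30 (Rsph1, SE 0.20) to 0.16 (Rsph10b, SE 0.11). When each brain was left out, Rsph1 ran from -0.54 to -0.16 and Rsph10b from 0.03 to 0.24. Over the 50 genes the groups did not overlap in 7 that were lower (14%, background 7.71%) and in 1 that was higher (2%, background 7.46%). Besides those named so far these were Cfap126 and Cfap298.

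**Figure D3:**
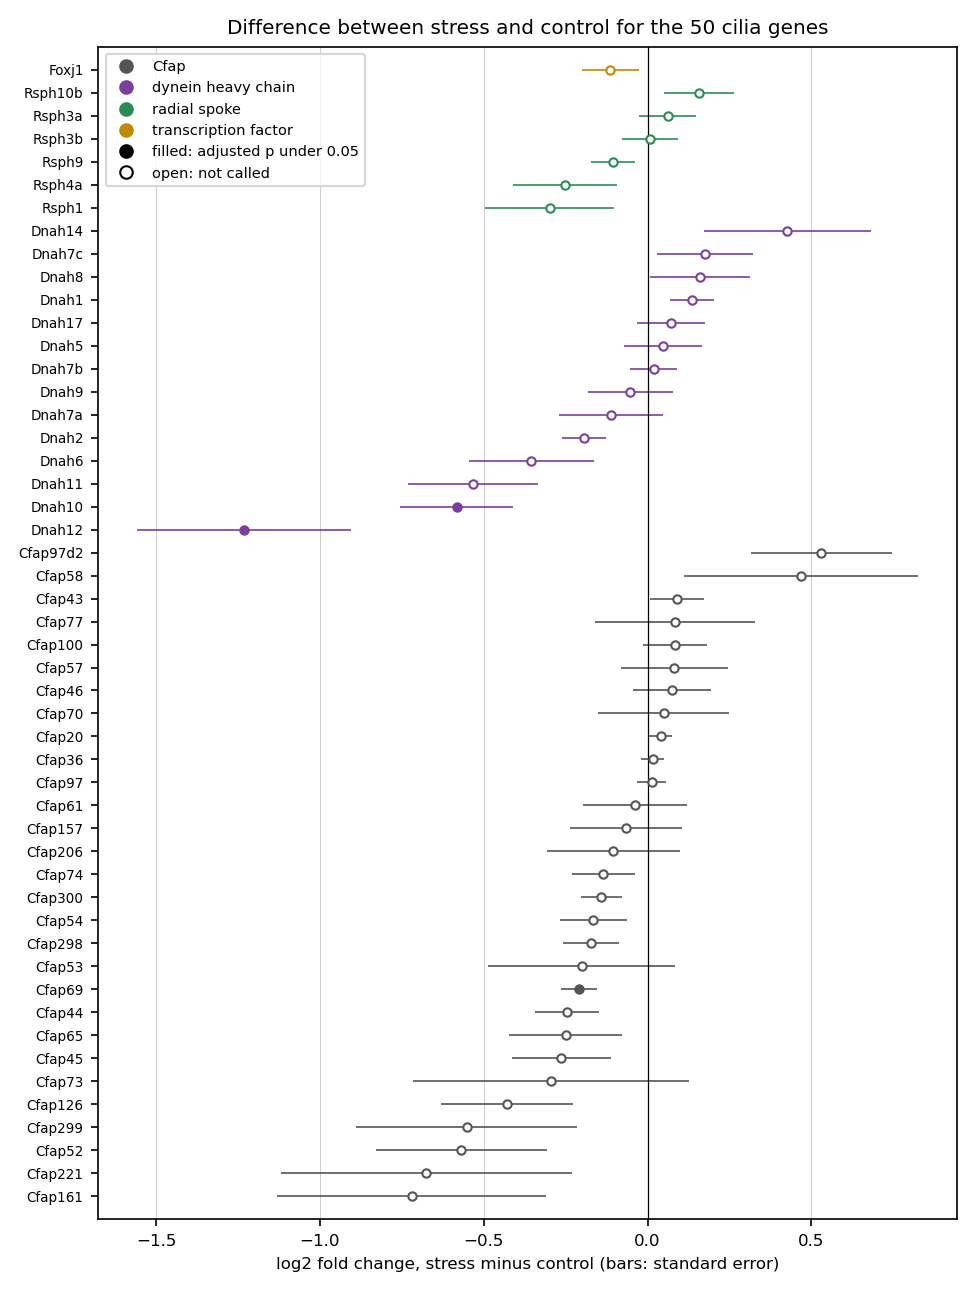
Log2 fold change, stress minus control, with its standard error for each of the 50 genes, coloured by kind and ordered within it; filled points had an edgeR adjusted p under 0.05. Filled points are Dnah12 at -1.23, Dnah10 at -0.58 and Cfap69 at -0.21, and the bars are long where counts are few.

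The other genes of the pathway were taken from lists of known components. As background for the calls in these lists, 6.41% of all genes tested were called lower and 5.49% higher. Of 16 ciliogenesis regulators none was called, and their median log2 fold change was 0.08. Their summed level was higher after PS without overlap, 320.5 to 324.3 CPM in controls and 330.4 to 336.4 CPM after PS. Gmnc, an early regulator of multiciliated cells, had a log2 fold change of -0.17 (SE 0.23), Mcidas, which acts with it, 0.21 (SE 0.35), and the X-box factors Rfx2 and Rfx3 0.12 (SE 0.09) and -0.02 (SE 0.03). None was called of 10 other dynein arm and docking genes, or of 11 genes of the nexin-dynein regulatory complex and its rulers. Of 12 assembly factors 1 was called: Zmynd10 fell by 0.39 on the log2 scale (SE 0.13, edgeR adjusted p = 0.0454), a call kept in 1 of the 8 fits without 1 brain (without control M31) and not made by DESeq2 (adjusted p = 0.187).

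Of 23 genes of the central apparatus and doublet lumen, 1 rose and 2 fell. Spag16, a central apparatus protein, was counted 20, 19, 17 and 17 times in controls and 32, 37, 35 and 39 times after PS. All stress brains lay far above all controls, and Spag16 was called in all 8 fits without 1 brain (log2 fold change 0.98, SE 0.20, edgeR adjusted p = 0.00151; DESeq2 adjusted p = 0.0139). Spef1, which bundles microtubules, fell by 0.15 (SE 0.04, edgeR adjusted p = 0.00577), with 13.4% of its exons under other genes. DESeq2 called Spef1 too (adjusted p = 0.0135), as did every edgeR fit without 1 brain (adjusted p at most 0.0305). Ak7, an adenylate kinase of cilia, fell by 0.45 (SE 0.15, edgeR adjusted p = 0.0449). Ak7 was called in 2 of the 8 fits, those without control M31 or stress M28. DESeq2 did not call Ak7 (adjusted p = 0.174). Genes that primary cilia also need, 31 of intraflagellar transport and the BBSome, included 2 that rose, Ift52 (0.16, not called without stress M28, edgeR adjusted p = 0.0825) and Ift74 (0.15, not called without control M30 or stress M29, 0.0963 and 0.119). Of 10 genes of cytoplasmic dynein, the transport motor that shares its fold with the axonemal chains, Dync1i1 fell by 0.33, Dynll1 fell by 0.20 and Dynlt1b rose by 0.14, the last called in 3 of the 8 fits without 1 brain.

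Markers of the cells that carry motile cilia were scarce. Of 12 ependymal and multiciliated markers 4 were below the minimum, among them Sntn with 0, Tmem212 with 1 and Ccdc153 with 13 counts over all 8 libraries. Their summed level was 33.2 to 38.4 CPM in controls and 29.7 to 31.9 CPM after PS, without overlap. Most of it was Tppp3, a tubulin-binding protein also made outside ependyma, which fell by 0.27 (SE 0.05, edgeR adjusted p = 0.00116), the 1 call among the 8 tested. The part of such cells in the differences of Dnah12, Dnah10 and Cfap69 was not tested.

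Of 17 choroid plexus markers 15 were tested and 2 rose, Ttr and Otx2, with a median log2 fold change of 0.02 over the 15. The summed level was 76.5 to 90.3 CPM in controls and 83.1 to 117 CPM after PS, the highest in F34. That sum includes Ttr, so it is not independent of the Ttr counts below. Kcnj13 had 6 and Cldn2 23 counts in all. Ttr, the transthyretin made by that epithelium, was counted 191, 16, 29 and 58 times in controls and 827, 171, 144 and 19 times after PS. F34 was far above and M29 far below the other stress brains, and the edgeR call (log2 fold change 1.91, adjusted p = 0.0066) was not made by DESeq2 (adjusted p = 0.448) and was lost without stress F34 (0.255) or control F37 (0.0692). The same animals were at the ends for the cilia genes: F34 was the highest stress brain in 24 of the 50 genes (48%, against 27.1% of all genes tested) and M29 the lowest in 23 (46%, against 25.8%). The mean log2 CPM of the 50 genes was 1.53, 1.55, 1.55 and 1.59 in controls and 1.55, 1.46, 1.44 and 1.34 after PS, so that F34 lay among the controls and M29 stood lowest. This order held for the mean but not for the median over the 50 genes. The median log2 CPM was 1.315, 1.032, 1.337 and 1.087 after PS, so that M28 was highest and F35 lowest. By the median, F34 and M28 lay among the controls, and F35 and M29 lay below all of them. Whether the amount of choroid plexus taken with each brain had a part in the order of the stress brains was not tested.

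**Figure D4:**
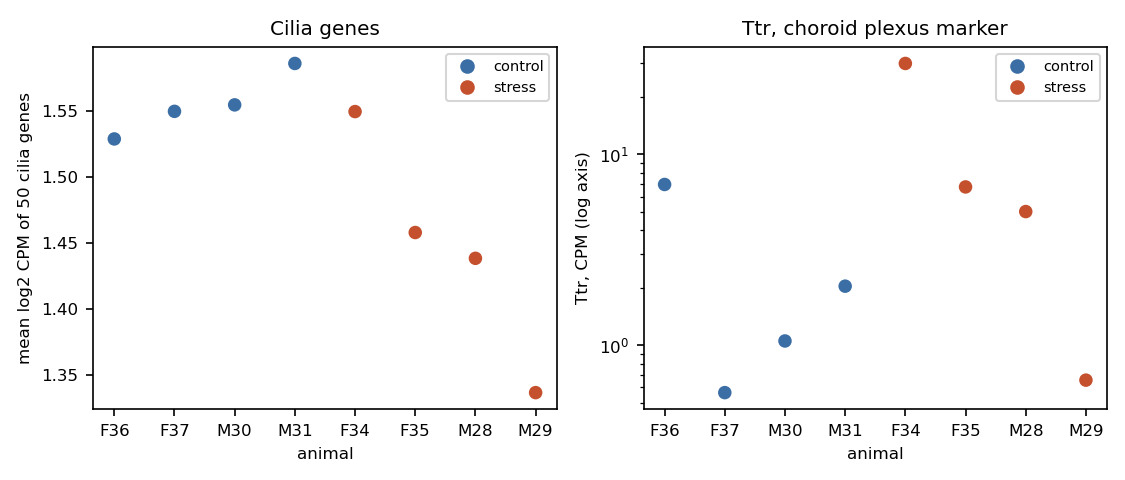
Left, mean log2 CPM of the 50 cilia genes in each brain; right, CPM of the choroid plexus marker Ttr in the same brains on a log axis. F34 has the highest value of the stress brains in both panels and M29 the lowest, while among controls the order differs. With the median over the 50 genes in place of the mean, M28 was the highest stress brain and F35 the lowest.

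The floor plate, whose cells express Foxj1 too, had 0 of 8 markers called, with a summed level of 231 to 257 CPM in controls. After PS the sum was 276, 228, 220 and 210 CPM in F34, F35, M28 and M29. F34 was thus the highest and M29 the lowest stress brain here as well. In other tissue lists some markers were called, where 5.49% of all genes tested rose and 6.41% fell. Of 6 mesenchyme markers 4 rose and 1 fell, with 42.4 to 53.4 CPM in controls and 41.2 to 83.3 CPM after PS, the highest in M28. Of 8 radial glia markers 4 rose, of 8 neuron markers 4 fell, of 8 Cajal-Retzius markers 4 rose and 1 fell, and of 6 blood markers 2 rose. The summed level of each of these lists overlapped between the groups. Radial glia markers summed to 1529 to 1622 CPM in controls and 1558 to 1685 after PS, and neuron markers to 6490 to 6716 and 6359 to 6653. Of 8 epithelial markers from outside the brain 3 were tested and 0 called, with a summed level of at most 2.79 CPM. Their part in the differences of the cilia genes was not tested.

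The sexes were compared because each group held 2 females and 2 males. In males alone 5 genes were called lower (10%, background 4.31%), namely Cfap44, Cfap52, Cfap69, Dnah12 and Dnah2, and 0 higher (background 3.24%). In females alone 0 were called lower (background 1.9%) and 0 higher (background 1.34%), while 4 had an unadjusted p under 0.05 (8%, background 16.5%). A test of the difference between the sexes, the interaction of sex and stress, called 0 of the 50 (background 0.00505%). Its lowest adjusted p was 0.598, for Cfap44, and 6 genes had an unadjusted p under 0.05 (12%, background 6.33%). Cfap44, which tethers inner arm dynein to the doublet, was at 6.63 and 7.19 CPM in control females, 7.57 and 6.32 in stress females, 8.52 and 7.80 in control males and 6.02 and 5.56 in stress males. The males were apart and the females overlapped, with log2 fold changes of -0.49 (SE 0.12) and 0.01 (SE 0.13). Over the 50 genes 24 were lower and 11 higher in both sexes. The share of all genes tested with such agreement was not counted, and females and males of a group were littermates. Between males and females as such 0 of the 50 were called in either direction (background 0.0606% lower in males and 0.0303% higher), with a lowest edgeR adjusted p of 0.729, and 2 had an unadjusted p under 0.05 (4%, background 5.79%).

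Of the 5 genes under the minimum, Dnah3 with 38 counts was nearest to it, followed by Rsph14 with 21, Cfap99 with 18, Rsph6a with 14 and Cfap97d1 with 6. Just above it were Cfap73 with 45 and Cfap221 with 50. The 5 genes under the minimum were not tested. The intermediate chain gene Dnaic1, which the name rule missed, had 274 counts and a log2 fold change of 0.02 (SE 0.20).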

How the data were processed

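Total RNA of 8 fetal brains was sequenced by the authors from oligo(dT)-captured mRNA in paired reads. The authors trimmed reads with Trim Galore, aligned them to mm10 with TopHat2 2.1.1 and counted pairs on exons with featureCounts 1.6.3 and GENCODE vM20, with no option set for strand, multiple hits or overlapping genes. What the authors deposited is this unnormalized count table, with exon lengths beside it. Symbols and biotypes were taken from GENCODE vM21 by identifier (54723 of 54752 matched).

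Genes with a total of at least 40 counts were tested (19809) with edgeR 4.0.16 (R 4.3.3), TMM, sex and condition in the model, quasi-likelihood F test, and Benjamini-Hochberg adjustment over all of them. DESeq2 1.42.0 was an alternative. Log2 CPM used a prior count of 2. The SE is the log2 fold change over the root of F. No batch was named for these samples. The procedure was tested on simulated data. Named were Foxj1, called genes, the 8 highest levels, the 5 largest differences each way and, in the other lists, called and first-listed genes; Dnah1, Dnah2, Dnah11, Cfap44, Cfap126, Cfap300, the spoke genes and Dnaic1 were added after their values were seen, as was the comparison of males with females. The genes and lists were chosen with earlier results of these data known. Promoters came from RefSeq.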

Additional observations from a re-analysis of the deposited data

Results flagged for a closer look

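Of 100 combinations of a gene and a group of 4 brains, 7 held a brain set apart from the other 3 by Dixon's ratio of the gap to the range, where chance gives about 1 in 20. The ratio was 0.845 for Cfap73 in control F36 (0.255 CPM against 0.211 to 0.218), 0.926 for Cfap77 in stress F35 (0.513 against 1.07 to 1.11), 0.853 for Dnah12 in stress F35 (0.276 against 0.207 to 0.217) and 0.862 for Dnah2 in control M31 (14.8 against 12.9 to 13.1). It was 0.904 for Dnah7c in control M31 (1.65 against 2.26 to 2.32), 0.845 for Dnah9 in stress F34 (7.31 against 4.30 to 4.77) and 0.870 for Rsph9 in control M30 (11.1 against 12.6 to 12.9). In counts, the brain for Cfap73 (7, 6, 6 and 6 in controls) and that for Dnah12 (6, 7, 6 and 6 after PS) differed from the other 3 by 1 read.

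In 3 genes both stress females lay above both control females and both stress males below both control males in CPM. The share of all genes tested with such a pattern was not counted, so the 3 cannot be read as more than the background. Over the 50 genes the fitted sign was the same in both sexes in 35, again without a count over all genes tested. The difference of the log2 fold changes, males minus females, was -0.69 for Cfap157 (0.27 in females, -0.42 in males), -0.78 for Cfap57 (0.51 and -0.27) and -0.26 for Dnah7b (0.15 and -0.11). The edgeR interaction test gave adjusted p values of 0.767, 0.679 and 0.827, so none passed.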

How the results depend on the processing

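The count of 3 genes called lower was 1 with DESeq2, 1 among genes with a total of 400 or more, 0 in females alone, 5 in males alone and 1 to 4 when each brain was left out in turn (1 without control F37 and 1 without control M30). Other normalizations, other filters on low counts, no sex term, leaving out overlapping genes and leaving out Cfap genes kept it within 1.5 times. The count called higher stayed at 0 in all alternatives run, as did the count for the interaction of sex and stress in the 12 edgeR alternatives run for it. The log2 fold change of Cfap36 ran from -0.0151 (without stress M29) to 0.0402 when each brain was left out. That of Cfap97 ran from -0.0218 (without stress F35) to 0.0457, was below 0 also without control F37 or stress M28, and was -0.0386 in males alone. Of the values of single named genes of the 50 under these alternatives, 266 kept direction and call, 14 lost the call, 1 gained it and 5 turned sign; the cause was not tested. No paired analysis was possible because the groups share no replicate number. Totals were under 400 in 22 genes, 2 of the 3 called genes (Dnah12 with 85 and Dnah10 with 308) among them.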
